A study of Procambarus virginalis with 3 samples.

Results

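Gene models with more than 1 annotated transcript were examined in RNA-seq data from hemocytes, the circulating blood cells of crustaceans, of *Procambarus virginalis*, the marbled crayfish, which reproduces clonally by parthenogenesis. A model was included when the table of its library listed several transcript names for it, which was the case for 295 of 21773 models. The choice rests on the annotation alone and uses no measured value. The 3 libraries, hem37, hem39 and hem40, form 1 group. They share the tissue and the source, which the labels give as pooled wild catches from lake Reilingen, and no genotype, treatment, time or age sets them apart. The number of animals behind each library is not stated, and the study describes the datasets as independent. All errors therefore describe the spread between these libraries, which may be technical. The expected count is the number of reads that the program RSEM estimated for a model, and its total was lowest in hem39 (17367967) and highest in hem40 (21143354). The tables pair no model with a gene name, so neither the hemocyte label nor the function of a model could be checked against known genes.

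A gene can give several mRNAs when exons are joined in different combinations, or when transcription starts or ends at different places. Such isoforms can encode proteins that differ by a few residues or by whole domains, or can differ only outside the coding sequence. In arthropod blood cells, alternative splicing is best known from the fly *Drosophila melanogaster*, where the immune receptor gene Dscam1 is spliced in a great many ways. RSEM reports for each model a length that is averaged over its transcripts, with each transcript weighted by its estimated abundance. This weighted length moves between libraries when the balance between a long and a short transcript moves. It cannot move when the transcripts are equally long, and it moves little when they differ by few bases. A library without reads for a model also gets a length, which can differ without any change in balance. Of the 254 models with several transcripts and a count above 0 in every library, 201 differed in length between libraries, while this was the case for 0 of the 21478 models with a single transcript.

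Most models with several transcripts had 2 of them. This applied to 243 models (82.4%), while 31 models had 3 transcripts, 10 had 4 and 11 had 5 or more. Together, they account for 728 of the 22206 transcripts in the annotation. Every one of the 295 models carries a name of the MAKER annotation pipeline, and none of the 13315 other models, whose names begin with evm, snap or snap_masked, has several transcripts. Within MAKER, the names further give the kind of evidence. Of the 190 models named protein2genome, which are built from an aligned protein, 69 (36.3%) had several transcripts. This compares with 63 of the 2606 models built from an aligned transcript and named est2genome (2.42%), and with 163 of the 5662 models named snap (2.88%), after a gene prediction program. All 11 models with 5 or more transcripts belonged to the protein2genome class. Among single-transcript models, the length was a multiple of 3 for 95.9% in the protein2genome class, 58.1% in the snap class and 39.7% in the est2genome class. The models with several transcripts were not checked for this. The 295 models lie on 285 scaffolds, and 19 of them share a scaffold with another.

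Models with several transcripts had a greater median length than single-transcript models of the same pipeline, and were about as strongly expressed. Their median length was 871 bases, with quartiles at 490 and 1965, against 762 bases in single-transcript MAKER models and 543 bases in all single-transcript models. Among the latter, models whose names begin with evm were longer, with a median of 1407 bases. TPM divides the count by the length and rescales every library to the same sum. The median of its mean over libraries was 6.86. It was 7.55 in single-transcript MAKER models and 5.88 in all single-transcript models. By library, the median TPM of the models with several transcripts was 7.32, 5.73 and 7.04 in hem37, hem39 and hem40 (6.70 ± 0.849, SD, n = 3). In the same order, it was 5.95, 5.07 and 6.32 in all single-transcript models and 7.72, 6.35 and 8.14 in those of MAKER. In each library, the models with several transcripts thus lay above the former and below the latter. These differences were about as large as the spread between libraries. All groups were lowest in hem39, so they share this spread, and it is not the error of a difference within a library. Together, the models held between 1.86% (hem39) and 1.89% (hem37 and hem40) of the summed TPM.

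Of the 295 models, 253 (85.8%) had a TPM above 0 in every library, 19 had one in some libraries and 23 (7.80%) were listed at 0 in all libraries. Among single-transcript MAKER models, 86.3% were detected in every library and 6.53% in none. Within each class, however, the models with several transcripts were detected in every library more often. In the snap class, 93.9% were, against 86.9% of single-transcript models. These shares were 92.1% and 86.7% in the est2genome class, and 60.9% and 52.9% in the protein2genome class. The share listed at 0 was also lower in each class. The protein2genome class held 69 of the 295 models but only 121 of the 8163 single-transcript MAKER models. A count of 0 allows for up to 3 counts, which for the median effective length of the detected models is a TPM of at most 0.173 (hem37), 0.186 (hem39) or 0.160 (hem40). This limit covers counting error only. The models without reads were concentrated in the protein2genome class, which held 17 of the 23. These were 17 of its 69 models with several transcripts, while 38 of its 121 single-transcript models were also at 0. The median TPM of models with several transcripts in this class was 2.01, with quartiles at 0.0633 and 16.0. It was 5.46 in the est2genome class and 11.4 in the snap class. Single-transcript models of the same 3 classes had medians of 2.72, 4.79 and 9.87 in the same order. The models with several transcripts were thus below them in the protein2genome class but above them in the est2genome and snap classes. When detected genes of the whole table were divided into quintiles by TPM, 74 of the 272 detected models (27.2%) fell into the highest quintile and 37 (13.6%) into the lowest. The same shares were 22.9% and 17.2% for single-transcript MAKER models.

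**Figure D1:**
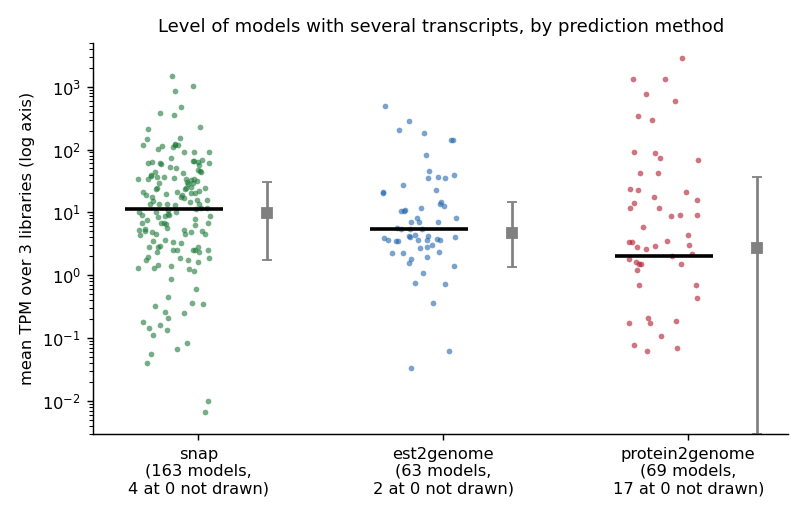
Mean TPM over the 3 libraries (log axis) of each detected model with several transcripts, by prediction method, with the median over all such models of the class, including those at 0, as a black bar. Grey squares and bars give the median and quartiles of single-transcript models of the same class, whose lower quartile is 0 in the protein2genome class. The medians of 11.4, 5.46 and 2.01 lie close to those of the single-transcript models.

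The 2 most abundant models were maker-scaffold8077-exonerate_protein2genome-gene-0.4 and maker-scaffold23229-snap-gene-0.1. The scaffold8077 model, with 2 transcripts, had TPM values of 3715, 2727 and 2015 in hem37, hem39 and hem40, or 2819 ± 854 (SD, n = 3). Its weighted length of 268, 267 and 266 bases stayed nearly constant, while its expected counts were 16228, 11052 and 9417. The scaffold23229 model, with 3 transcripts, had a TPM of 1487, 1528 and 1440, or 1485 ± 43.9 (SD, n = 3), and lengths between 683 and 690 bases. Its level was steady in TPM, with a coefficient of variation of 0.0295, but this value was 0.134 once TPM was scaled by TMM, the trimmed mean of log ratios, a normalization that matches libraries on the bulk of their genes. The models in the next places, maker-scaffold113356-exonerate_protein2genome-gene-0.0 and maker-scaffold336218-exonerate_protein2genome-gene-0.1, which were noticed after their values were seen, had the same counts and lengths as each other within 1% in every library. Their shared values were 4619, 4596 and 7501 expected counts. The posterior standard deviation, RSEM's uncertainty of a count from reads that align to several models, reached 1962 for the latter. The reads of this pair could not be told apart, and their 2 rows are not independent measurements. None of the other models among the 236 whose mean expected count reached 10 had such a partner.

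Gene expression variability was measured, as in the study, by the coefficient of variation of TPM, the standard deviation over libraries divided by the mean. Its median was 0.221 over the 272 detected models with several transcripts, and 0.253 over 20097 detected single-transcript models. Because the coefficient rises when counts are low, models were compared within bands of the mean expected count. Between 10 and 100 counts, the median was 0.277 in 80 models with several transcripts and 0.258 in 6921 models with a single transcript. Between 100 and 1000 counts, it was 0.177 in 85 and 0.184 in 6128 models. At 1000 counts and above, it was 0.148 in 71 and 0.160 in 2855 models. The quartiles in that last band were 0.101 and 0.226 against 0.0959 and 0.262, so these ranges overlapped over most of their width. Under 10 counts, the medians were 0.868 and 0.835.

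The same picture was obtained with deciles of the mean count over all detected models. Of the 272 models, 131 (48.2%) lay above the median of single-transcript models in their own decile, and 130 did so when only single-transcript MAKER models served as the reference. The median of the models with several transcripts was the lower one in 7 of 10 deciles. The share above the reference was 49.7% of 159 snap models, 37.7% of 61 est2genome models and 55.8% of 52 protein2genome models. It was 48.9% of 229 models with 2 transcripts and 44.2% of 43 models with 3 or more. No test was applied to these shares, since models are not replicates. Without hem39, the median coefficient was 0.109, against 0.222 without hem37 and 0.220 without hem40. The share above the reference was between 44.3% (without hem39) and 53.0% (without hem40), and it was 50.4% with TPM scaled by TMM, so that it lay on either side of 50% depending on the setting.

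**Figure D2:**
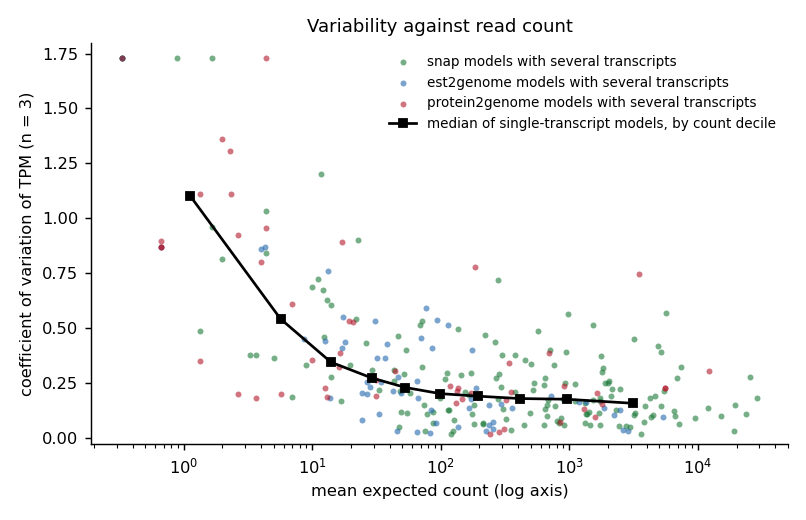
Coefficient of variation of TPM over the 3 libraries against the mean expected count (log axis) for each detected model with several transcripts, coloured by prediction method. Black squares give the median of single-transcript models in each of 10 count deciles, and 131 of the 272 points lie above the median of their decile.

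Counts were then tested against sampling noise with a chi-square test of the 3 counts of a model, in which library sizes were adjusted by TMM. Of the 295 models, 236 reached a mean of 10 expected counts and could be tested. At a Benjamini-Hochberg adjusted p under 0.05, 144 of them (61.0%) varied beyond sampling noise, while 55.2% of all 16140 tested models did so. Among single-transcript MAKER models the share was 60.0%. What is compared here is reads of 3 libraries, not conditions. By count band, 25 of 80 models with several transcripts passed between 10 and 100 counts (31.3%), 52 of 85 between 100 and 1000 (61.2%) and 67 of 71 at 1000 and above (94.4%). The shares of single-transcript models in these bands were 31.2%, 65.0% and 92.1%. By prediction method, 100 of 145 snap models passed (69.0%), 25 of 56 est2genome models (44.6%) and 19 of 35 protein2genome models (54.3%). Of the single-transcript models, 70.0% passed in the snap class, 37.4% in the est2genome class and 29 of 58 in the protein2genome class.

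Each library held the highest value of a similar number of variable models. Of the 144 models, 49, 53 and 42 were highest in hem37, hem39 and hem40, or 20.8%, 22.5% and 17.8% of those tested. Over all tested models, these shares were 16.1%, 20.8% and 18.3%. With the posterior variance as a further source of error, 128 models passed (54.2%), and 47.5% of all tested models. RSEM also gives an interval of TPM for each library. In 123 of the 236 models (52.1%), the intervals of some libraries did not overlap, against 50.6% of all tested models. Among single-transcript MAKER models, this share was 58.3%. By count band, it was 17.5% between 10 and 100 counts, 55.3% between 100 and 1000 and 87.3% at 1000 and above. In single-transcript models of these bands it was 21.4%, 64.2% and 92.2%. Without hem39, 97 of 235 models passed the chi-square test (41.3%), and 31.8% of all tested models.

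Among models with at least 100 counts in every library, the most variable were maker-scaffold24530-exonerate_protein2genome-gene-1.5 and maker-scaffold32747-snap-gene-1.22. The scaffold24530 model had TPM values of 417, 1435 and 461 in hem37, hem39 and hem40, with a coefficient of variation of 0.747 (n = 3). Its expected counts were 1969, 6146 and 2371. It was high in hem39 alone, and without that library the coefficient was 0.0704. Its weighted length was 286, 279 and 288 bases, so its shortest value coincided with its highest TPM. With the effective length held at its mean over libraries, TPM was still 419, 1404 and 468, with a coefficient of 0.727. The scaffold32747 model had a TPM of 9.33, 2.71 and 3.27 in the same order, with a coefficient of 0.719 (n = 3). It was high in hem37 alone, and without hem37 the coefficient was 0.132.

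The steadiest models were maker-scaffold212301-exonerate_protein2genome-gene-0.1 and maker-scaffold65446-snap-gene-0.2. The former had a TPM of 17.2, 17.7 and 17.7, with a coefficient of 0.0155 (n = 3), and the latter 6.71, 6.72 and 6.90, with 0.0158 (n = 3). After TMM scaling of TPM these values were 0.112 and 0.0952. Neither varied beyond sampling noise in the chi-square test, with adjusted p of 0.131 and 0.509 from 242 and 120 mean expected counts. The scaffold212301 model was listed at 735 bases in every library, and the scaffold65446 model at 930, 930 and 928 bases.

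Isoform use was followed through the weighted length. The paper lists single-end sequencing for these libraries and paired-end sequencing for its other RNA libraries. How far this limits the division of reads between transcripts was not tested. The 221 models with an expected count of at least 10 in every library were used, since a model without reads has no abundance to weight by, and 74 models were left out. For a typical model, the length was almost the same in all libraries. The longest value exceeded the shortest by a median of 0.840% (a log2 ratio of 0.012), with an upper quartile of 3.48%. In 44 models the length was identical in all libraries. The difference was above 5% in 44 models (19.9%), above 10% in 26 (11.8%) and above 50% in 2. Models with 3 or more transcripts shifted by a median of 1.82% (30 models), compared with 0.654% in those with 2 (191 models). The medians by prediction method were 1.27% for protein2genome, 0.797% for est2genome and 0.783% for snap models.

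Shifts were larger where reads were few. The median was 1.31% in 74 models with 10 to 100 counts in the library with fewest reads, 1.06% in 80 models with 100 to 1000 and 0.521% in 67 models with 1000 or more. Shifts above 10% were found in 11, 11 and 4 of these models. An unchanged length was also most common where reads were few, in 25, 13 and 6 of these models. Across the 177 models with any shift, Spearman's rho between the size of the shift and the lowest count was -0.41. This value leaves out the models with an unchanged length, which lay mostly at low counts. This is a description across models that share the same libraries and depth. The largest ratio of all, 4.33, belonged to maker-scaffold56312-snap-gene-0.19, which was noted after its values were seen. It rests on 14, 17 and 38 expected counts.

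**Figure D3:**
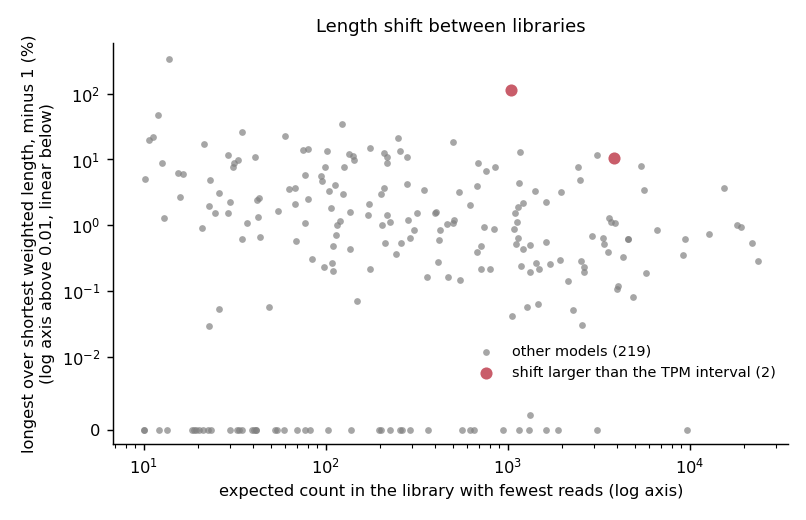
Excess of the longest over the shortest weighted length among the 3 libraries, in percent, against the expected count in the library with fewest reads, for the 221 models with several transcripts and at least 10 counts in every library. Shifts are smaller at high counts, and in the 2 models drawn in red the shift is larger than the TPM interval in both libraries concerned.

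Between each pair of libraries, some models were longer and others shorter, and 50 to 54 of the 221 models had exactly the same length. From hem37 to hem39, 96 models were longer and 75 shorter, from hem37 to hem40, 88 were longer and 79 shorter, and from hem39 to hem40, 78 were longer and 89 shorter. These pairs share libraries and are not independent. Among the 44 models with a shift above 5%, the library that stood apart from the others was hem37 in 17 models, hem39 in 16 and hem40 in 11. In 14 of the 17 models in which hem37 stood apart, it held the shorter value. Among the 23 of these 44 models with at least 100 counts in every library, hem37, hem39 and hem40 stood apart in 7, 8 and 8. The order depended on the threshold. Above 10%, hem39 stood apart in 13 of 26 models, hem37 in 7 and hem40 in 6. With any shift, these numbers were 65, 57 and 55 of 177. With only 2 libraries, the number of models with a shift above 10% was 10 when hem39 was left out, 13 when hem37 was and 16 when hem40 was, against 26 with all 3.

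The tables give no error for the length itself. The TPM interval, which contains the uncertainty of both the count and the division of reads between transcripts, was therefore used as a yardstick. A shift was counted as larger than this error when the ratio of lengths exceeded the ratio of the upper to the lower TPM bound in both of the libraries compared. This was the case for 2 of the 44 models with a shift above 5%, and for 2 of the 26 with a shift above 10%. For the other 42 models, the shift lay within the interval of at least 1 library. The yardstick is a wide one, because it also holds the counting error that does not affect a ratio of lengths. Among models with 100 to 1000 counts in the library with fewest reads and a posterior standard deviation of 0, the ratio of the bounds, averaged over libraries, had an upper quartile of 1.36 in 33 models with several transcripts and 1.27 in 2477 models with a single transcript. It was above 1.5 in 3 of these 33 models, with a highest value of 6.47, and in 0 of the 2477, with a highest value of 1.46. At 1000 counts and more, it was above 1.5 in 0 of 36 and 0 of 1349 models, with highest values of 1.22 and 1.13.

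The clearest shift belonged to maker-scaffold31232-snap-gene-0.42, a model with 2 transcripts. Its weighted length was 3276 bases in hem37, 3603 in hem39 and 1675 in hem40, a ratio of 2.15 between the longest and the shortest. Its expected counts were 2135, 1978 and 1049, so hem40 had the fewest reads although it was the deepest library. In TPM, the model was nearly level, with 33.0, 29.8 and 29.9. The lower count in hem40 was thus divided by a shorter length. The ratio of the TPM bounds was between 1.32 (hem37) and 1.40 (hem40), each well under the ratio of the lengths. By counts the model varied beyond sampling noise, with an adjusted p of 3.41e-162 in the chi-square test, which covers counting error only. Without hem40, the log2 ratio of the longest to the shortest length fell from 1.11 to 0.14. The shift thus rests on hem40 and has no replicate check.

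The second model, maker-scaffold119606-snap-gene-0.0, is reported for its place past the interval and falls outside the rule for named models. It had 2 transcripts and lengths of 3549, 3902 and 3923 bases, so that hem37 held the short value. The ratio of 1.11 was barely larger than the ratios of the bounds, 1.096 in hem37 and 1.093 in hem40. Expected counts were 4595, 3832 and 5081, and these did not vary beyond sampling noise (adjusted p = 0.0632 in the chi-square test). TPM was 65.5, 53.3 and 60.7.

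A shift of similar rank was not larger than its error. The model maker-scaffold343849-exonerate_protein2genome-gene-0.5 had a length of 234 bases in hem37 and hem40 and of 173 bases in hem39, a ratio of 1.35. Its expected counts were 140, 123 and 143. In TPM it was highest in hem39, with 53.3 against 38.0 and 36.0, but the interval in hem39 ran from 32.0 to 262. The intervals in hem37 (33.2 to 188) and hem40 (31.1 to 173) were also wide. The counts did not vary beyond sampling noise (adjusted p = 0.392 in the chi-square test). Without hem39, the length was the same in both remaining libraries and the coefficient of variation of TPM fell from 0.224 to 0.0383.

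**Figure D4:**
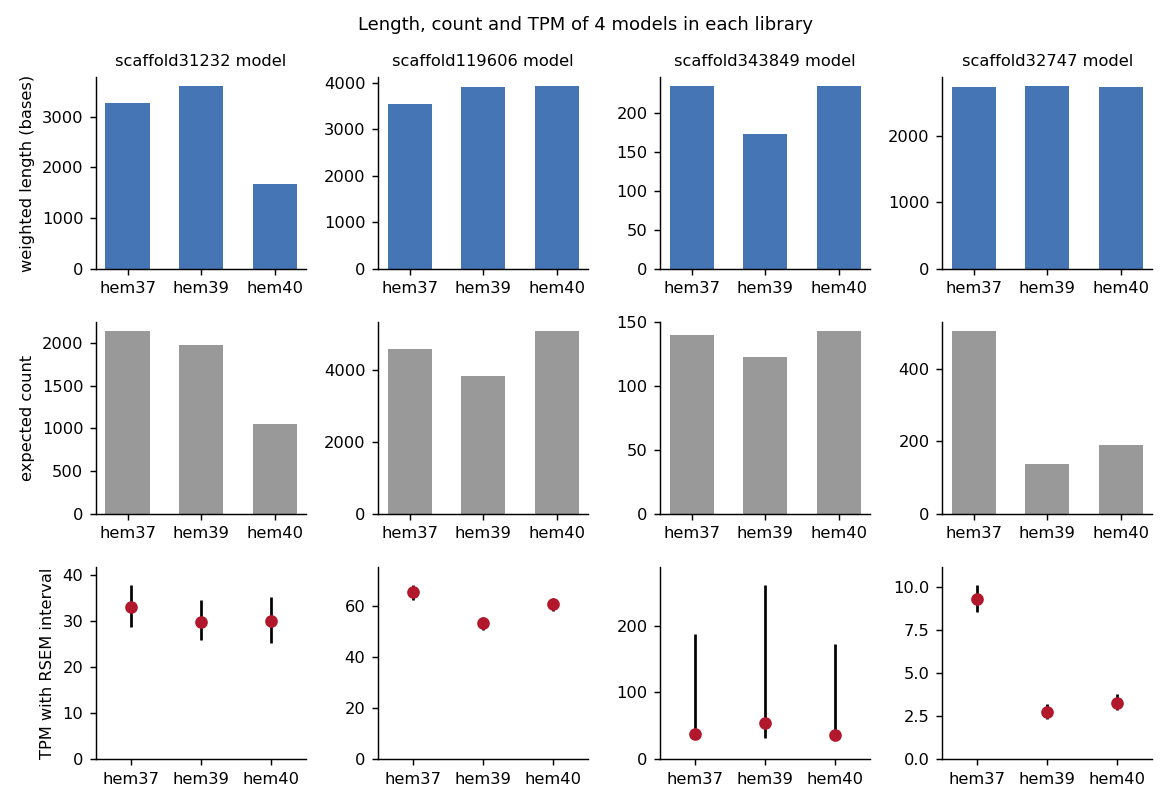
Weighted length in bases (top row), expected count (middle row) and TPM with the bounds of RSEM's interval as vertical lines (bottom row) in each library, for the scaffold31232, scaffold119606, scaffold343849 and scaffold32747 models. In the scaffold31232 model the length falls to 1675 bases in hem40 while TPM stays between 29.8 and 33.0. In the scaffold343849 model the TPM interval is wide in every library, spanning 33.2 to 188 in hem37, 32.0 to 262 in hem39 and 31.1 to 173 in hem40.

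Abundant models with an unchanged length formed the other end of the range. The 2 with the highest counts were maker-scaffold20483-snap-gene-0.0 and maker-scaffold58445-snap-gene-0.29. The former was listed at 15540 bases in all libraries, with 11650, 9704 and 14681 expected counts, and a TPM of 37.5, 33.5 and 43.9. The latter was listed at 6195 bases, with 4649, 3100 and 4990 expected counts and a TPM of 37.7, 27.0 and 37.6. It was lowest in hem39, and without hem39 its coefficient of variation fell from 0.180 to 0.00300. All 44 models with an unchanged length had a length that was a whole number of bases. A whole number is obtained when all reads are given to 1 transcript, or when the transcripts are equally long, and the tables do not separate these possibilities.

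Whole-number lengths also marked models in which the estimate moved from 1 transcript to the other. In 12 of the models with 2 transcripts and a count above 0 in every library, the length was a different whole number in different libraries, as when each of the transcripts took all reads in 1 library. The numbers differed by between 12 and 663 bases, and in 9 of the 12 models by a multiple of 3, which keeps the reading frame if the difference is coding. Lengths that are multiples of 3 are common in the annotation. Among single-transcript models, they made up 95.9% of the protein2genome, 58.1% of the snap and 39.7% of the est2genome class. The share expected from this was not computed. Only 4 of the 12 had at least 10 counts in every library. The model with most reads among them was the scaffold32747 model, at 2739 bases in hem37 and hem40 and 2751 bases in hem39, from 503, 190 and 137 expected counts, respectively. The second was maker-scaffold3446-snap-gene-0.0, at 2098 bases in hem37 and 2344 bases in hem39 and hem40. It had 52, 29 and 81 expected counts, and a posterior standard deviation between 11.2 and 21.6 counts from reads that other models share. The difference of 12 bases in the scaffold32747 model is less than 1% of its length, so it counted among the models with a small length shift.

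As TPM is divided by the weighted length, shifts in length enter the coefficient of variation. To measure this, TPM was recomputed with the effective length of each model held at its mean over the libraries. The coefficient of variation moved by a median of 0.00325 over the 272 detected models, and by more than 0.01 in 85 of them (31.3%). It became higher in 39 of these and lower in 46, and the median over all 272 models went from 0.221 to 0.217. Among the 147 models with at least 100 counts in every library, the coefficient moved by more than 0.01 in 34 and by more than 0.1 in 3. Of the 8000 single-transcript models with as many counts, 0 moved by more than 0.01. Over all 20097 detected single-transcript models, 347 (1.73%) moved by more than 0.01, although their length was the same in every library. The 272 detected models include some without reads in a library, where the listed length has no abundance to weight by.

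Among these 147, the models that moved most were the scaffold31232 and the scaffold343849 model, in opposite directions. The coefficient of the scaffold31232 model was 0.0593 with the deposited TPM and 0.383 with a fixed length (n = 3), as its TPM became 17.3 in hem40, against 38.0 in hem37 and 37.8 in hem39. The coefficient of the scaffold343849 model fell from 0.224 to 0.0330 (n = 3), with a recomputed TPM of 42.6, 40.2 and 40.4. Scaled by TMM, the deposited TPM of the scaffold31232 model had a coefficient of 0.10, and its TMM-scaled counts had one of 0.438. The 23 models with at least 100 counts and a shift above 5% had a median coefficient of 0.111 with the deposited TPM and 0.116 with a fixed length. The remaining 124 models had 0.166 and 0.164. The former group had fewer reads, with a median of 297 against 1204 mean expected counts, and 11 of its 23 models varied beyond sampling noise, compared with 101 of 124. Across the 147 models, Spearman's rho between the size of the shift and the coefficient of variation was -0.09.

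**Figure D5:**
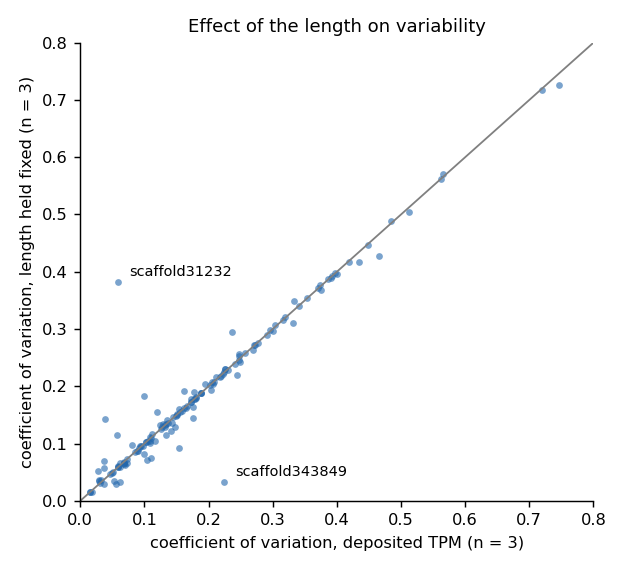
Coefficient of variation over the 3 libraries computed with the length held fixed (vertical) and with the deposited TPM (horizontal) for the 147 models with several transcripts and at least 100 counts in every library. Most points lie on the diagonal, while the scaffold31232 model moves from 0.0593 to 0.383 and the scaffold343849 model from 0.224 to 0.0330.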

How the data were processed

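Hemocyte RNA was sequenced in 3 libraries, prepared with the TruSeq kit from DNase-treated total RNA. Per the submitters' processing notes, HISAT2 2.0.4 and RSEM 1.2.30 were used. The sources used here do not give the annotation release. The authors deposited 1 RSEM table per library, with expected counts (reads per model, not normalized), TPM, and lengths, posterior standard deviations and TPM bounds, which were handled as scores. The level of these bounds is not stated.

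Expected counts were rounded for the chi-square test, which used TMM factors from edgeR 4.0.16 (alternative: DESeq2 1.42.0 size factors, R 4.3.3) and Benjamini-Hochberg adjustment over all models with a mean of at least 10. The test was tried on simulated counts with sampling noise and planted changes in 1 library. These held no shared reads and no further spread between libraries, so its behaviour under those was not checked. No quasi-likelihood contrast exists with 1 group. Other steps ran in Python 3.11.15 with scipy 1.17.1, pandas 2.3.3 and numpy 2.4.6.

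The models and rules were chosen with earlier results of these data known. Named were 2 models each for highest TPM, most transcripts and different whole-number lengths (by mean count). Among models with at least 100 counts in every library, 2 each were named for largest and smallest length shift (ties by mean count), highest and lowest coefficient of variation and largest effect of a fixed length. Sequences, coordinates and gene names were not used here.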

Additional observations from a re-analysis of the deposited data

How the results depend on the processing

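No paired analysis was possible because all 3 libraries belong to 1 group. Among 56 summary values under other settings, 37 moved by less than the spread between libraries or, for counts of models, by less than 1.5 times. The median TPM of the models was 11.9 in models reaching a mean of 10 expected counts, and 6.48 to 7.02 when 1 library was left out. The share of models above the reference variability was 50.4% with TPM scaled by TMM and 44.3% to 53.0%, and the median coefficient of variation 0.109 to 0.222, with 1 library left out. As a standard deviation of log2(TPM + 0.1), another scale, the median was 0.31. The number beyond sampling noise was 97 to 118 with 1 library left out, where 31.8% to 45.6% of all tested models passed. The median length shift (log2) was 0.014 with any count above 0, 0.0099 with at least 100 counts, 0.0060 as a standard deviation and 0.0048 to 0.0066 with 1 library left out. Shifts above 10% numbered 41, 15 and 10 to 16 under the first, second and last of these settings, and 2 when the shift had to exceed the TPM interval, an alternative chosen after seeing the data, as was the MAKER reference. With at least 100 counts, shifts above 5% numbered 16 for hem39 over hem37, 17 for hem40 over hem37 and 15 for hem40 over hem39. In the main setting, shifts above 10% numbered 26, and shifts above 5% numbered 34, 28 and 27 in the same order of pairs. Such counts fall by construction when fewer models or libraries enter or a stricter condition is set, and rise when more models enter. Holding the length fixed moved 83 to 94 models when 1 library was left out. Depth limits what can be said of isoform use in the 74 models with under 10 counts in a library.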

Other observations

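The models with the most transcripts had very few reads. The 2 models with 20 transcripts each, maker-scaffold237663-exonerate_protein2genome-gene-0.0 and maker-scaffold21607-exonerate_protein2genome-gene-0.69, had 0 expected counts in every library and 3, 2 and 3 expected counts, respectively. Of the 11 models with 5 or more transcripts, 7 had a mean expected count under 10. All 11 belong to the protein2genome class, where low counts were common. A mean of 10 was reached there by 35 of 69 models with several transcripts and 58 of 121 single-transcript models. Over all models, 74.1% reached it. For the scaffold21607 model, TPM was 0.09 in hem37, whereas RSEM's interval ran from 0.371 to 0.871, and the TPM lay below its own interval in the other libraries as well. The TPM lay outside the interval in at least 1 library for 7 of the 8 detected models with 5 or more transcripts, for 12 of 43 with 3 or more and for 15 of 229 with 2. The share was 9.93% over single-transcript models and 9.93% over all models with several transcripts. Among models reaching a mean of 10 expected counts, it was 3 of 32 models with 3 or more transcripts, 1 of 204 with 2 and 0.673% of single-transcript models. The cause was not tested.

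Reads shared with other models were more common among snap models with several transcripts. The posterior standard deviation exceeded 10% of the count in 20 of 145 such models (13.8%) and in 5.34% of single-transcript snap models with the same minimum of 10 mean counts. In the est2genome class these were 14 of 56 models and 27.2%.

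The model maker-scaffold131471-exonerate_protein2genome-gene-0.0, chosen after its values were seen, has 6 transcripts. Its weighted length was 1323, 1233 and 1498 bases and its expected counts were 293, 250 and 380. Its TPM of 11.5, 11.3 and 12.2 was level, and with a fixed length the coefficient of variation rose from 0.0381 to 0.142 (n = 3). The counts did not vary beyond sampling noise (adjusted p = 0.334 in the chi-square test), and the length shift was smaller than the ratio of the TPM bounds in at least 1 of the libraries compared. The TPM lay below its own interval in hem37 (11.9 to 26.5) and in hem40 (12.5 to 29.5).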
